A study of Mus musculus with 20 samples.

Results

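The cytosolic ribosomal protein genes are the genes of the proteins that, with the ribosomal RNAs, build the large and the small subunit of the ribosome in the cytoplasm. They were taken by symbol: every symbol made of Rpl or Rps, a number and at most one of the letters a, l or x, and in addition Rpsa, Rplp0, Rplp1 and Rplp2. The deposited count matrix held 79 such genes among 16047, of which 47 were named for the large subunit and 32 for the small one. The rule uses no measured value.

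The cells were B lineage cells with eYFP, index-sorted one by one into plates from lymph nodes of C57BL/6 mice that had received NP-KLH, a hapten on a carrier protein, in Sigma Adjuvant System. All were taken on day 15 of the primary response, 4 days after tamoxifen gavage, so every group shared the reporter and the treatment. The promoter behind the reporter and the number of mice are not given in the sources used here. Libraries were made by FB5P-seq, which counts the 5′ ends of polyadenylated transcripts with a short molecular tag, after 22 cycles of preamplification. The 20 plates fell into 10 of the sampleID C57BL/6M and 10 of the sampleID C57BL/6F, assigned through the letter M or F that the authors' table gives for every cell of a plate. The same table gives 4 sort gates: plasma cell (393 cells), pre-plasma (282 cells), dark zone (325 cells) and light zone (367 cells).

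Ribosomal protein mRNAs are among the most abundant in growing cells and share a pyrimidine tract at the 5′ end, through which their translation follows nutrient and growth signals. In the germinal centre, B cells divide in the dark zone and test their antigen receptor in the light zone, and some leave as plasma cells, which turn much of their translation to antibody. The subunits are built in equal numbers, so the mRNAs of this family usually move together, and members that leave the common pattern stand out against it.

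Across plates the matrix held between 5979 and 11908095 counts, and 10 to 78 cells. Plate 6 of C57BL/6F stood apart with 10 cells and 5979 counts in all, and it entered the shares by gate only through 5 cells of the pre-plasma gate, while all its cells are in the sums by state. It also entered the plate mean of 1 state, the memory-like pre-plasma cells named below, through 5 cells. Without plate 6 the smallest plate held 3208858 counts. Counts were summed per plate and gate wherever at least 5 cells were present, which left 19 plates with pools of both sides in each comparison of gates. The dark and light zone gates, summed, are called the germinal centre gates below. Relative to them, 7 of 7 plasma cell marker genes were higher in the plasma cell gate, with a median log2 fold change of 6.92. All 6 germinal centre B cell markers that could be tested were lower. Of the markers of other cells, no T cell or myeloid marker passed the filter on low counts in the comparisons of gates. The 7 myeloid markers summed to at most 262.5 CPM on a plate in the plasma cell gate and 334.4 in the pre-plasma gate, against 4.562 in the germinal centre gates, and the 6 T cell markers to at most 51.9, 7.40 and 9.10 CPM. Of 7 erythroid and stromal markers 1 could be tested, Hbb-bt, a beta globin gene. It had 0 CPM on every plasma cell plate, a median of 0 and a highest plate of 47.5 CPM in the pre-plasma gate, against 1.65 to 82.7 CPM in the germinal centre gates. Relative to the germinal centre gates it was lower in both the plasma cell gate (adjusted p = 0.00148, edgeR) and the pre-plasma gate (adjusted p = 0.000883, edgeR). The part of these cells in the results below was not tested. P-values from the comparisons of gates and of sampleIDs measure the spread between plates, those from the comparisons of states the spread between sums per sampleID, and sampleID, sex, animal and handling cannot be told apart.

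The start sites of some members that carry the results are shown to set those with the pyrimidine-rich CTTTC next to those without it. CTTTC is a literal string, so a stretch without it can still be rich in C and T, as that of Rps27l is. Not shown are the starts of Rps19 and Rplp0 and a further start of Rps27l, none with CTTTC within 30 bases. That of Rpsa, with CTTTC within 30 bases but outside the stretch, is not shown either. Each is the stretch from 20 bases before to 10 bases after a start site in the RefSeq promoter table (GRCm38.p6), on the strand of the gene, with CTTTC in capitals. The coordinates are chr3:90213639-90213668 on the minus strand for Rps27, chr11:114668560-114668589 on the plus strand for Rpl38, chr9:66946066-66946095 on the plus strand for Rps27l, chrX:74270796-74270825 on the plus strand for Rpl10, and chr10:128549159-128549188 on the minus strand for Rpl41.
Rps27: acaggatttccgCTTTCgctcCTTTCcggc
Rpl38: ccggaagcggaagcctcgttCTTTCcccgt
Rps27l: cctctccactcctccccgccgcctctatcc
Rpl10: ctatggttgttacagtggaagataggccgc
Rpl41: gacgacacacgggccggctcggaagtgacg
The table held 58 of the 79 members, with 69 starts. The letters CTTTC, read on the gene's strand only, lay within 30 bases of a start in 22 of the 58 members, or 37.9%, against 7.97% of the 11235 genes of the matrix found in the table. The letters CCGGAA, read on both strands over the whole promoter window, were present in 33 members, or 56.9%, against 28.6% of those genes. Members with and without CTTTC had like median log2 fold changes in the plasma cell gate relative to the germinal centre gates, -0.31 over 21 tested members with it and -0.30 over 36 without it. For CCGGAA they were -0.22 over 32 members with it and -0.37 over 25 without it. Relative to the pre-plasma gate, the plasma cell gate had -0.36 with and -0.28 without CTTTC, and -0.20 with and -0.43 without CCGGAA. For the pre-plasma gate relative to the germinal centre gates they were -0.06 and 0.005 for CTTTC, and 0.05 and -0.03 for CCGGAA. None of these differences was tested.

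The members took up 8504680 of 110379058 counts. Their share was lowest in the plasma cell gate, where it averaged 6.34% ± 0.979 (SD, n = 19 plates), with a lowest plate of 4.68%, a median of 6.55% and a highest of 8.05%. The pre-plasma gate averaged 7.97% ± 1.04 (SD, n = 20 plates), or 7.89% ± 1.02 over 19 plates without plate 6. The germinal centre gates averaged 8.32% ± 1.41 (SD, n = 19 plates), with a range of 5.98% to 10.84%. The plasma cell gate was below the germinal centre gates of the same plate in 19 of 19 plates and below the pre-plasma gate in 19 of 19, although the ranges over plates overlapped. The difference within a plate averaged -1.99 percentage points ± 0.943 (SD) for the plasma cell gate minus the germinal centre gates. For the plasma cell gate minus the pre-plasma gate it averaged -1.55 ± 0.795. The pre-plasma gate was below the germinal centre gates in 13 of 19 plates, by -0.433 ± 0.973, a mean difference smaller than its spread.

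**Figure D1:**
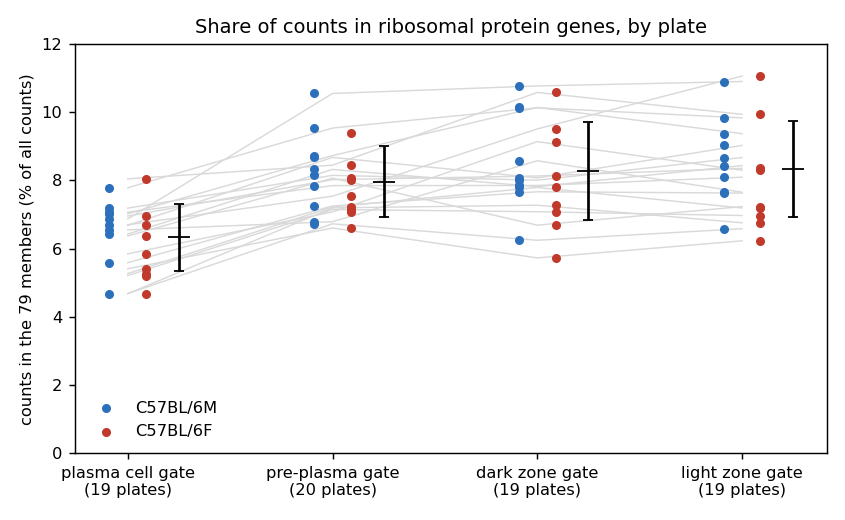
Share of counts in the 79 ribosomal protein genes (%, vertical axis) for each plate and sort gate; points are plates, coloured by sampleID, grey lines join the gates of a plate, and black bars are the mean ± SD. The plasma cell gate averaged 6.34% and lay below the germinal centre gates on each of the 19 plates that held both.

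The dark zone gate averaged 8.28% ± 1.44 and the light zone gate 8.33% ± 1.41 (SD, n = 19 plates each), and the dark zone was the higher of the pair on 9 plates and the lower on 10. Immunoglobulin transcripts made up 8.0% of the summed counts of the plasma cell gate, 3.05% of the pre-plasma gate, 1.80% of the dark zone gate and 1.63% of the light zone gate. They lie in the denominator of the share. With immunoglobulin genes left out of the denominator the share was 6.92% ± 1.04 in the plasma cell gate and 8.47% ± 1.44 in the germinal centre gates. The plasma cell gate was again the lower on 19 of 19 plates, by -1.55 percentage points. Depth moved with the share as well: in the plasma cell gate the cells above the median count had a median share of 6.37% and those below it 4.74%. In the dark zone gate these medians were 8.22% above and 7.38% below. With every cell thinned to 5000 counts, which left out 61 of 1367 cells, the plasma cell gate remained the lower on 19 of 19 plates, by -2.53 percentage points.

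The authors' table also names 7 annotated states. The steps of that annotation are not given in the sources used here, and where it rests on the RNA of the same cells, values by state are not independent of it. Annotated plasma cells averaged 6.82% ± 0.999, dark zone cells 8.06% ± 1.33 and light zone cells 8.46% ± 1.48 (SD, n = 19 plates each). Plasma cells were below dark zone cells on 18 of 19 plates and below light zone cells on 19 of 19, and dark zone cells were below light zone cells on 16 of 19, by -0.396 ± 0.743 percentage points. Memory-like pre-plasma cells averaged 8.12% ± 1.84 (SD, n = 6 plates with at least 5 of them). The 6 plates include plate 6, with 5 such cells at 8.195%. They were above plasma cells on 4 of 5 plates, by 1.38 ± 2.24 percentage points, but after thinning on 1 of 4. Summed per sampleID, the shares in C57BL/6M and C57BL/6F were 9.22% and 7.42% in the activated pre-plasma state, 9.04% and 6.68% in the memory-like pre-plasma state, 8.13% and 8.25% in the light-to-dark zone state, and 11.63% and 10.79% in the pre-memory state. Pre-memory cells, 17 in all, were thus the state with the highest share in both sampleIDs. The memory-like state had a median of 376 detected genes per cell over 63 cells, against 1510 in plasma cells, so its values rest on few molecules.

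Annotated plasma cells did not form a uniform class in this respect. Those sorted through the plasma cell gate (351 cells) had a share of 6.38% ± 0.962, and those sorted through the pre-plasma gate (128 cells) had 7.78% ± 1.05 (SD, n = 17 plates). The plasma cell gate was the lower on 17 of 17 plates. Median counts per cell were 64068 through the plasma cell gate and 106183 through the pre-plasma gate. Over all cells of these gates, 83.2% were called G1 in the plasma cell gate and 36.5% in the pre-plasma gate. The parts of depth and of cell cycle phase in this difference were not tested.

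Cell cycle phase, as called in the authors' table, moved with the share in opposite directions in plasma cells and in germinal centre cells. Plasma cells in S or G2M phase averaged 7.58% ± 1.46 and those in G1 6.07% ± 0.873 (SD, n = 15 plates), and cycling cells were the higher on 15 of 15 plates. In dark zone cells the share was 7.79% ± 1.37 in S or G2M and 8.71% ± 1.62 in G1 (SD, n = 17 plates), with cycling cells the lower on 15 of 17. In light zone cells it was 7.76% ± 1.29 in S or G2M and 8.97% ± 1.78 in G1 (SD, n = 13 plates), with cycling cells the lower on 12 of 13. No test was made of the difference between the states. Cycling cells were the deeper ones in each of the 3 states, with median counts of 157200 in S or G2M and 61160 in G1 for plasma cells, and 70560 in S or G2M and 43910 in G1 for dark zone cells. The parts of depth and of sort gate in these differences were not tested.

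**Figure D2:**
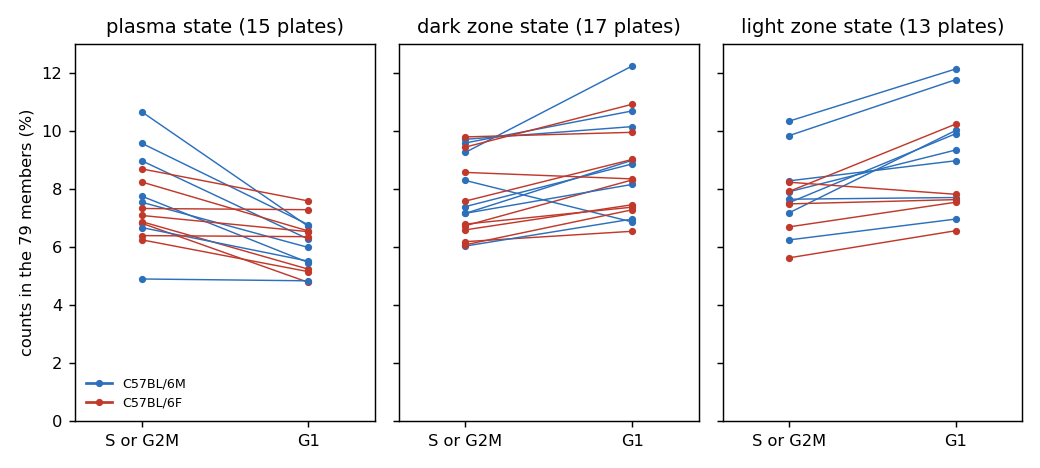
Share of counts in the 79 members (%, vertical axis) in cells called S or G2M and in cells called G1, for each plate with at least 5 cells of both; lines join the values of a plate and are coloured by sampleID. In plasma cells the S or G2M value was the higher on 15 of 15 plates, and in dark zone cells it was the lower on 15 of 17.

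Cells in G1 made up 83.2% of the plasma cell gate, 36.5% of the pre-plasma gate, 43.1% of the dark zone gate and 37.6% of the light zone gate. Among G1 cells the plasma cell gate averaged 5.81% ± 0.889 and the germinal centre gates 9.01% ± 1.63 (SD, n = 19 plates), and the plasma cell gate was the lower on 19 of 19. Among G1 cells the pre-plasma gate averaged 7.51% ± 1.10 and the germinal centre gates 8.74% ± 1.66 (SD, n = 11 plates), lower in the pre-plasma gate on 10 of 11. Among cells in S or G2M, 5 plates could be compared, with 7.69% ± 0.944 (SD) in the plasma cell gate and 7.48% ± 0.443 in the germinal centre gates. The plasma cell gate was the higher on 3 of these plates and the lower on 2. The gene levels below were measured over all phases together, and the part of phase in them was not tested.

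Gene by gene, most ribosomal protein mRNAs were lower in the plasma cell gate than in the germinal centre gates, and a handful were higher. Of the 77 members that passed the filter on low counts, 40 were lower and 6 were higher (edgeR quasi-likelihood test with plate as block, Benjamini-Hochberg adjusted p below 0.05 over all 6865 genes tested). Over all genes tested the shares were 21.3% lower and 13.6% higher. Calls in either direction went with level: 28 of the 39 members of higher level were called, and 18 of the 38 of lower level. The members were not set against other genes of like level. The median log2 fold change was -0.32 over the members and -0.50 over all genes tested, so the members' median lay above that of all genes although their share of counts was lower. Rpl39l and Rps4l were counted in 4 and 20 cells of the whole matrix and were not tested. The small subunit contributed 3 of the higher and 19 of the lower members, out of 31 tested, and the large subunit 3 and 21, out of 46.

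The 6 higher members were Rps27l, Rpl38, Rpl10, Rpl41, Rps24 and Rps14. Rps27l, a paralogue of Rps27 known as a target of the tumour suppressor Trp53, had 305 to 2473 CPM (counts scaled to library size with TMM factors) in the plasma cell gate with a median of 1164, and 140 to 1255 in the germinal centre gates with a median of 481. It was the higher in the plasma cell gate on 18 of 19 plates, with a log2 fold change of 1.42 ± 0.13 (SE; adjusted p = 1.38e-09, edgeR quasi-likelihood test). The highest germinal centre plate, plate 14 at 1255 CPM, reached into the range of the plasma cell gate. Rpl10, a protein that joins the large subunit late in its maturation, had 971 to 2927 CPM with a median of 2072 in the plasma cell gate, and 758 to 2164 CPM with a median of 1090 in the germinal centre gates. It was the higher on 18 of 19 plates as well, with a log2 fold change of 0.83 ± 0.08 (SE; adjusted p = 9.01e-09, edgeR). The processed copy Rpl10-ps3 held 3.81% of the counts of the pair in the plasma cell gate and 2.18% in the germinal centre gates, and reads of near-identical copies may be split between them by the counting.

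Rpl41, whose coding sequence of 75 bases makes a very short basic peptide, had 656 to 3860 CPM in the plasma cell gate with a median of 1645, and 303 to 3008 CPM in the germinal centre gates with a median of 1015. The ranges overlapped widely, yet within plates Rpl41 was the higher in the plasma cell gate on 19 of 19, with a log2 fold change of 0.62 ± 0.07 (SE; adjusted p = 1.21e-07, edgeR). Rpl38, a large subunit protein tied to the selective translation of Hox mRNAs in mouse embryos, had 19.7 to 738 CPM in the plasma cell gate with a median of 139, and 12.4 to 349 CPM in the germinal centre gates with a median of 80.7. It was the higher on 18 of 19 plates, by a log2 fold change of 0.87 ± 0.23 (SE; adjusted p = 0.00371, edgeR). Rps14, a small subunit protein whose gene is lost in a human bone marrow disorder with anaemia, averaged 3097 ± 719 CPM in the plasma cell gate and 2460 ± 619 in the germinal centre gates (SD, n = 19 plates), a log2 fold change of 0.35 ± 0.06 (SE; adjusted p = 4.26e-05, edgeR). Rps24, mutated in human Diamond-Blackfan anaemia and named here only to complete the 6, had a log2 fold change of 0.37 ± 0.10 (SE; adjusted p = 0.00499, edgeR).

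**Figure D3:**
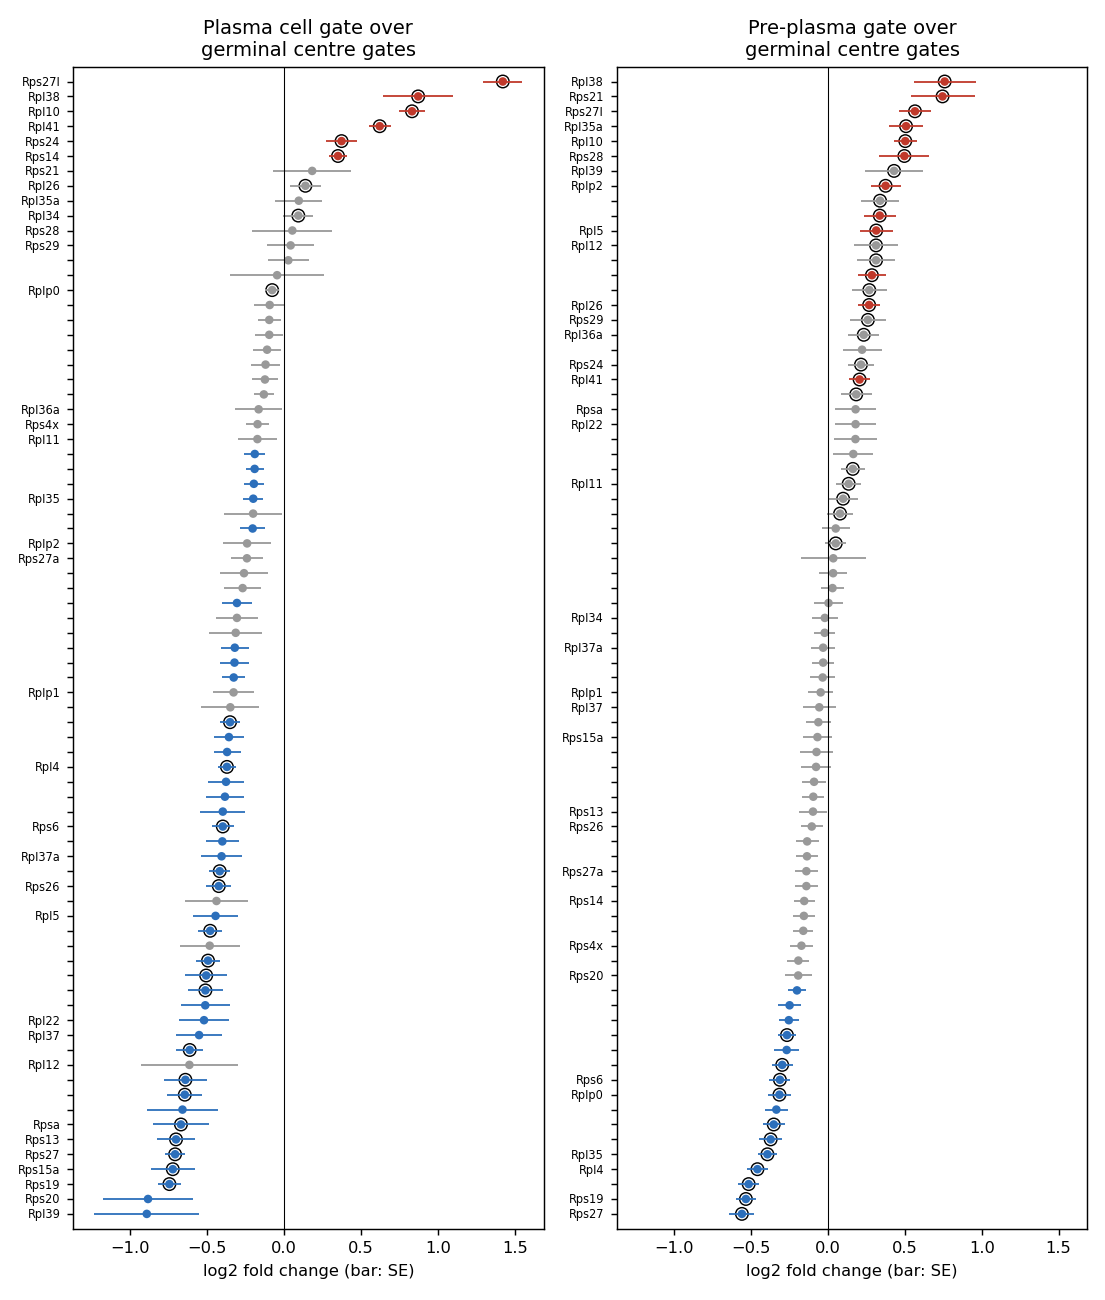
Log2 fold change ± SE (horizontal axis) of each of the 77 tested members in the plasma cell gate (left) and the pre-plasma gate (right), over the germinal centre gates. Red points were higher and blue points lower at an adjusted p below 0.05, grey points were not past it, and a black ring marks members that left the common pattern, and members described in the text carry their names; 6 members were higher and 40 lower on the left, and 12 higher and 16 lower on the right.

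The lower members came from both subunits. Rps19, a small subunit protein mutated in Diamond-Blackfan anaemia, had 666 to 2339 CPM with a median of 1422 in the plasma cell gate, and 1270 to 3758 CPM with a median of 2577 in the germinal centre gates. It was the lower in the plasma cell gate on 19 of 19 plates, by a log2 fold change of -0.75 ± 0.08 (SE; adjusted p = 1.02e-08, edgeR). Rps27 was the lower on 19 of 19 plates too, with 365 to 3341 CPM and a median of 1098 in the plasma cell gate, 590 to 6278 CPM and a median of 1875 in the germinal centre gates, and a log2 fold change of -0.71 ± 0.06 (SE; adjusted p = 1.15e-09, edgeR). Rps27 and Rps27l, with coding sequences of 252 bases each, thus moved in opposite directions. Rps13 and Rps15a, both of the small subunit, had log2 fold changes of -0.70 ± 0.12 (SE; adjusted p = 6.3e-05, edgeR) and -0.72 ± 0.14 (SE; adjusted p = 0.000275, edgeR).

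Rpsa, the small subunit protein also described as a laminin receptor, averaged 360 ± 171 CPM in the plasma cell gate and 556 ± 263 in the germinal centre gates (SD, n = 19 plates), a log2 fold change of -0.67 ± 0.18 (SE; adjusted p = 0.0053, edgeR), and was the lower on 15 of 19 plates. Rps6, the small subunit protein phosphorylated by S6 kinase, was lower by a log2 fold change of -0.40 ± 0.07 (SE; adjusted p = 6.76e-05, edgeR). Rpl5, which binds Mdm2 when ribosome assembly is disturbed, was lower by -0.45 ± 0.14 (SE; adjusted p = 0.0179, edgeR), and Rpl11, its partner in that complex, had -0.17 ± 0.13 (SE), which did not pass the test. Rpl22, an RNA-binding protein of the large subunit, had -0.52 ± 0.16 (SE; adjusted p = 0.0138, edgeR). The lowest fold changes, -0.89 ± 0.34 (SE; adjusted p = 0.0436) for Rpl39, a small protein of the exit tunnel, and -0.89 ± 0.29 (SE; adjusted p = 0.0209) for Rps20, carried wide errors, and Rpl39 was the higher in the plasma cell gate on 5 of 19 plates.

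Members of the stalk that recruits elongation factors did not pass the test. Rplp0, the stalk base, had 2228 to 4952 CPM in the plasma cell gate and 2423 to 4954 CPM in the germinal centre gates, with a log2 fold change of -0.08 ± 0.05 (SE; adjusted p = 0.21, edgeR). Rplp1 and Rplp2, the acidic stalk proteins, had -0.33 ± 0.14 (SE) and -0.24 ± 0.16 (SE). Rps4x, encoded on the X chromosome, had -0.17 ± 0.07 (SE), and Rps27a, made as a fusion with ubiquitin, had -0.24 ± 0.10 (SE); both missed the threshold. Without plate 14, Rplp1 (-0.38), Rps27a (-0.25) and Rps4x (-0.22) passed it. Rpl39 was no longer past the threshold under 7 alternatives, among them leaving out plate 14 (log2 fold change -0.87) or plate 20 (-0.95), whereas Rps27l, Rpl10, Rps19, Rps27 and Rps13 passed under each alternative tried. With the plate left out of the model 18 members were lower and 3 higher, where 13.9% of all genes tested were lower and 13.3% higher. In C57BL/6F plates alone 11 were lower, where 6.71% of all genes were.

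Scaled on the sum of the members in place of all genes, a member that moves with the rest has a log2 fold change near 0. On that scale 9 members lay above the common pattern and 17 below it, of 77, where 15.8% of all genes tested lay above and 17.0% below. Above it were the same 6 together with Rpl26, Rpl34 and Rplp0; Rps27l stood 1.64 ± 0.12 (SE), Rpl38 1.09 ± 0.23, Rpl10 1.05 ± 0.07 and Rpl41 0.84 ± 0.08 above the members' sum. Those below it included Rps19 at -0.53 ± 0.06, Rps15a at -0.51 ± 0.13, Rps27 at -0.49 ± 0.06 and Rps13 at -0.49 ± 0.10. Of the 17 below, 13 were small subunit genes and 4 were of the large subunit.

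**Figure D4:**
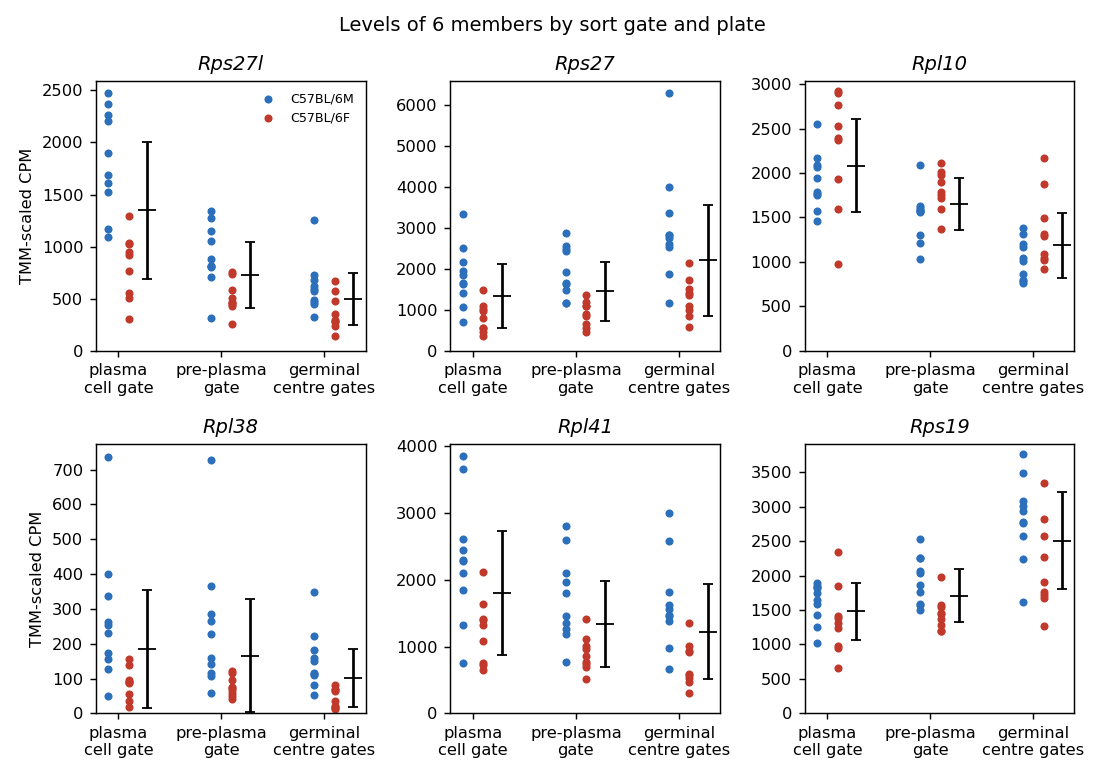
Level (TMM-scaled CPM, vertical axis, each panel from 0) of Rps27l, Rps27, Rpl10, Rpl38, Rpl41 and Rps19 by sort gate; points are plates, coloured by sampleID, and black bars are the mean ± SD over 19 plates. Rps27l averaged 1349 CPM in the plasma cell gate and 498 in the germinal centre gates, and Rps27 averaged 1345 in the plasma cell gate and 2204 in the germinal centre gates.

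The relative use of paralogues differed between the gates. Of the counts of Rps27l and Rps27 together, Rps27l held 50.8% ± 5.18 in the plasma cell gate. It held 34.3% ± 5.91 in the pre-plasma gate, against 19.96% ± 6.96 in the germinal centre gates (SD, n = 19 plates each). Every plasma cell plate, from 41.5% to 62.7%, lay above every germinal centre plate, from 8.60% to 37.9%. Within plates the share was higher in the plasma cell gate than in the pre-plasma gate on 19 of 19, and the pre-plasma gate exceeded the germinal centre gates on 17 of 19. In the plasma cell gate the share was 51.1% ± 6.03 in C57BL/6M and 50.5% ± 4.38 in C57BL/6F (SD, n = 10 and 9 plates), a difference smaller than the spread. The 2 genes are near relatives, and how the authors' counting treated reads shared between them is not given in the sources used here.

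The files held 7 further ribosomal protein genes of a fixed list outside the symbol rule, some of them paralogues of members. Rpl36al, a paralogue of the member Rpl36a, averaged 994 ± 266 CPM in the plasma cell gate, 502 ± 204 in the pre-plasma gate, and among germinal centre pools 283 ± 108 (SD, n = 19 plates), with a log2 fold change of 1.88 ± 0.10 (SE; adjusted p = 1.08e-13, edgeR) for the plasma cell gate over the germinal centre gates. Of the counts of Rpl36al and Rpl36a, Rpl36al held 71.7% ± 6.82 in the plasma cell gate, 49.9% ± 6.28 in the pre-plasma gate, and among germinal centre pools 39.0% ± 8.46. The plasma cell plates, from 61.2% to 90.1%, again lay above the germinal centre plates, from 26.2% to 54.9%. The third pair ran the other way: Rpl22l1 held 41.8% ± 11.8 of the counts of Rpl22l1 and Rpl22 in the plasma cell gate and 52.0% ± 8.30 in the germinal centre gates, and was the lower on 16 of 19 plates. Fau, a fusion of a ubiquitin-like protein with a small subunit protein, was lower in the plasma cell gate by a log2 fold change of -0.74 ± 0.07 (SE). Rpl22l1 was lower by -1.05 ± 0.28 and Rps3a1 by -0.46 ± 0.09 (SE). Of the 7 genes 1 was thus higher and 3 were lower, where 13.6% and 21.3% of all genes tested were.

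Other genes of the translation machinery were set beside the members. Of 19 translation factors and other mRNAs with a 5′ pyrimidine tract, 11 were lower in the plasma cell gate than in the germinal centre gates and 0 were higher, with a median log2 fold change of -0.52. Npm1, a nucleolar chaperone, averaged 552 ± 202 CPM in the plasma cell gate and 1347 ± 300 in the germinal centre gates (SD, n = 19 plates), a log2 fold change of -1.34 ± 0.13 (SE), and Eef1a1, the elongation factor that brings aminoacyl-tRNA, had -0.34 ± 0.06 (SE). Of 23 tested ribosome biogenesis genes 6 were lower and 0 higher, with a median of -0.55. Of 74 tested mitochondrial ribosomal protein genes 7 were lower and 9 higher, with a median of -0.33. All genes tested had a median of -0.50, with 21.3% of them lower and 13.6% higher. No test was made of these lists against all genes.

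The pre-plasma gate showed a mixed pattern relative to the germinal centre gates, with 12 members higher and 16 lower of 77 (edgeR quasi-likelihood test with plate as block). Among all 7150 genes tested 7.09% were higher and 8.14% lower. The median log2 fold change was -0.03 over the members and -0.19 over all genes. The split depended on the processing. DESeq2 gave 19 higher and 16 lower, where 11.7% of all genes were higher and 16% lower, and correction for collisions of the molecular tags gave 19 and 8, where 7.46% and 7.75% were. Fewer were higher with no filter (4 higher, 18 lower), with no plate block (1 higher, 11 lower), in C57BL/6F plates alone (1 higher, 12 lower), in C57BL/6M plates alone (3 higher, 7 lower) and after thinning (6 higher, 8 lower). Over these 5 settings 3.59% to 15% of all genes tested were higher and 3.41% to 15.5% lower.

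Rpl10 had 1028 to 2108 CPM with a median of 1606 in the pre-plasma gate, and 758 to 2164 CPM with a median of 1090 in the germinal centre gates. It was the higher in the pre-plasma gate on 18 of 19 plates, with a log2 fold change of 0.50 ± 0.08 (SE; adjusted p = 1.58e-05, edgeR). Rps27l was the higher on 16 of 19 plates, with 259 to 1344 CPM and a median of 741 in the pre-plasma gate, against 140 to 1255 CPM and a median of 481 in the germinal centre gates, with a log2 fold change of 0.57 ± 0.11 (SE; adjusted p = 0.000274, edgeR). Rpl38, Rps21 and Rpl35a, all short proteins, were higher by log2 fold changes of 0.76 ± 0.20, 0.75 ± 0.21 and 0.51 ± 0.11 (SE). Rplp2 rose by 0.38 ± 0.10 (SE; adjusted p = 0.00669, edgeR) and Rpl5 by 0.31 ± 0.11 (SE; adjusted p = 0.043, edgeR), although Rpl5 was no longer past the threshold without plate 20 (0.32). Rpsa, lower in the plasma cell gate, averaged 604 ± 165 CPM in the pre-plasma gate, against 556 ± 263 in the germinal centre gates (SD, n = 19 plates), with 0.18 ± 0.13 (SE), which did not pass the test.

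On the lower side were Rps27, which averaged 1445 ± 711 CPM in the pre-plasma gate, against 2204 ± 1351 in the germinal centre gates (SD, n = 19 plates; log2 fold change -0.56 ± 0.08, adjusted p = 8.82e-06, edgeR), and Rps19, at 1710 ± 386 CPM in the pre-plasma gate, against 2505 ± 703 in the germinal centre gates (log2 fold change -0.53 ± 0.07, adjusted p = 5.57e-07, edgeR). Rpl4, which lines the exit tunnel, had -0.46 ± 0.07 (SE; adjusted p = 7.64e-06, edgeR), and Rplp0 had -0.32 ± 0.07 (SE; adjusted p = 0.00263, edgeR). On the scale of the members' sum, 26 lay above the common pattern and 11 below it, where 8.92% of all genes tested lay above and 6.46% below. Rplp0 was no longer past the threshold after correction for tag collisions (log2 fold change -0.07) or after thinning (-0.17), and Rps21 fell short after thinning (0.32). Among the 19 genes of the translation factor list 2 were higher and 3 lower, where 7.09% and 8.14% of all genes tested were. Gnb2l1, a scaffold protein of the small subunit also known as Rack1, was higher by 0.30 ± 0.10 (SE).

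Between the 2 antibody-lineage gates, the plasma cell gate was higher than the pre-plasma gate in 5 members and lower in 36, of 77 tested. Among all 6564 genes tested 8.42% were higher and 9.69% lower. The median log2 fold change was -0.30 over the members and -0.27 over all genes tested.

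Rpsa had 96.9 to 712 CPM with a median of 357 in the plasma cell gate, and 257 to 898 CPM with a median of 571 in the pre-plasma gate. It was the lower in the plasma cell gate on 18 of 19 plates, by a log2 fold change of -0.88 ± 0.16 (SE; adjusted p = 0.000164, edgeR). Rpl5 had 115 to 762 CPM with a median of 379 in the plasma cell gate and 439 to 982 CPM with a median of 630 in the pre-plasma gate, and was the lower on 17 of 19 plates, by -0.79 ± 0.15 (SE; adjusted p = 0.00033, edgeR). Rpl39 and Rpl12, a protein near the stalk, had the lowest fold changes, -1.35 ± 0.29 (SE; adjusted p = 0.0014, edgeR) and -0.98 ± 0.31 (SE; adjusted p = 0.0305, edgeR). Rpl22 and Rplp2 were lower by -0.73 ± 0.18 (SE; adjusted p = 0.00499, edgeR) and -0.65 ± 0.14 (SE; adjusted p = 0.00164, edgeR). Rpsa, Rpl5 and Rplp2 therefore had a higher mean in the pre-plasma gate than in the other 2 sets of gates, although for Rpsa the difference from the germinal centre gates did not pass the test.

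Higher in the plasma cell gate than in the pre-plasma gate were Rps27l (log2 fold change 0.81 ± 0.11, adjusted p = 3.52e-06), Rps14 (0.47 ± 0.07, adjusted p = 7e-06), Rpl41 (0.38 ± 0.07, adjusted p = 0.000105), Rpl10 (0.29 ± 0.07, adjusted p = 0.00197) and Rplp0 (0.20 ± 0.06, adjusted p = 0.0191; SE, edgeR). Rplp0 turned to -0.016 after correction for tag collisions and to -0.05 after thinning, and Rpl10 was no longer past the threshold under these settings, at 0.19 and 0.15. Relative to the members' sum, 9 lay above the common pattern and 20 below it, where 9.48% of all genes tested lay above and 7.97% below. The 3 comparisons of gates share their pools, so their lists of members are not independent of each other.

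No member passed the threshold between the dark and the light zone gate: 0 of 77 were higher and 0 lower in the dark zone gate by edgeR, and 0 and 0 by DESeq2, while 4 had an unadjusted p below 0.05. Among all 5904 genes tested 0.186% were higher and 0.119% lower. Few zone markers were called either: 0 of 4 tested dark zone marker genes were higher, and 1 of 5 light zone marker genes was lower. The members' median log2 fold change was -0.08, with single values from -0.44 to 0.19, and that of all genes was -0.11. With the members' sum as the scale, 0 members lay above the common pattern and 0 below it, where 0.203% of all genes lay above and 0.0847% below.

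Annotated plasma cells, set against annotated germinal centre cells (the light-to-dark, dark and light zone states) on the same plates, gave 8 members higher and 18 lower of 77, where 15.1% of all genes tested were higher and 15.8% lower. The 18 lower members were all among the 40 lower by gate, which is 100% of the 18 and 45% of the 40. The 6 members higher by gate were all among the 8. Both comparisons share plates and many cells, since 351 of the 393 cells of the plasma cell gate were annotated plasma cells. Both overlaps are thus in part built in, and they were not set against the overlap over all genes. DESeq2 gave 6 higher and 36 lower, where 18.1% and 29.4% of all genes were, and thinning gave 6 higher and 45 lower, where 25.2% and 32.2% were. Relative to the members' sum, 11 lay above the common pattern and 14 below it, where 16% of all genes lay above and 14.4% below. Rps27l averaged 1174 ± 560 CPM in annotated plasma cells and 492.7 ± 229 in annotated germinal centre cells (SD, n = 19 plates), and Rpl10 averaged 2096 ± 354 in plasma cells and 1177 ± 339 in germinal centre cells. Both were higher in plasma cells on 19 of 19 plates.

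Levels over all 7 states are given per sampleID, C57BL/6M before C57BL/6F. Rps27l had 1887 and 1294 CPM in the memory-like pre-plasma state, 1746 and 762 in plasma cells, 1017 and 637 in the activated pre-plasma state, 732 and 389 in the light-to-dark zone state, 577 and 333 in dark zone cells, 483 and 380 in light zone cells, and 119 and 188 in pre-memory cells. In each sampleID its levels in the 3 states of the antibody lineage lay above those in the 3 germinal centre states of that sampleID. Rpl10 was highest in memory-like cells of C57BL/6M, at 2194 CPM, and in plasma cells of C57BL/6F, at 2435 CPM. It was lowest in light zone cells of C57BL/6M, at 984 CPM, and in dark zone cells of C57BL/6F, at 1314 CPM. Rps27 ran highest in pre-memory cells of both, at 3908 and 1994 CPM, and lowest in the light-to-dark zone state of C57BL/6M, at 1330 CPM, and in the activated pre-plasma state of C57BL/6F, at 700 CPM.

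No member was past the threshold in the activated pre-plasma state relative to the germinal centre states: 0 of 79 were higher and 0 lower by edgeR, with 10 at an unadjusted p below 0.05, and DESeq2 gave 3 higher and 0 lower, where 2.36% and 3.9% of all genes were. By edgeR 0.673% of all 10995 genes tested were higher and 0.537% lower. Scaled on the members' sum, 2 members lay below the common pattern, Rplp0 among them, and 0 above it, where 0.691% of all genes lay below and 0.873% above. Rplp0 had 2367 and 2344 CPM in the activated state of C57BL/6M and C57BL/6F. It had 3432 and 4150 CPM in dark zone cells, 3349 and 4391 in light zone cells, and 2021 and 2854 in the light-to-dark zone state. In C57BL/6M the light-to-dark zone state was thus below the activated state. Relative to the mean of these 3 germinal centre states, Rplp0 lay -0.45 ± 0.09 (SE; adjusted p = 0.0251, edgeR) below the pattern. After correction for tag collisions 0 members lay below. The activated state held 29 cells with a median of 229914 counts each, and 2 sums, 1 per sampleID, stand for it. The germinal centre side has 6 sums, which are 3 states of the same 2 sampleIDs and not separate samples. In this fit 4 of 7 myeloid markers were tested, with a median log2 fold change of 3.8. By edgeR 0 of them passed the threshold and 2 had an unadjusted p below 0.05. The 7 summed to 97.7 and 26.6 CPM in the activated state of C57BL/6M and C57BL/6F, with Csf1r, C1qa, C1qb and Itgax at 0, against 5.10 and 6.84 in dark zone cells, 0.960 and 70.6 in light zone cells and 3.39 and 0.217 in the light-to-dark zone state. Their part in the levels above was not tested.

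In the memory-like pre-plasma state relative to annotated plasma cells, 0 of 79 members were higher and 0 lower by edgeR, with 8 at an unadjusted p below 0.05, and DESeq2 gave 3 higher and 0 lower, where 1.62% and 10.8% of all genes were. By edgeR 0.0455% of all 10995 genes tested were higher and 0.0273% lower. The median over all genes was -1.48 by edgeR and -1.02 by DESeq2, against 0.21 over the members by edgeR, in a state with few detected genes per cell. The 7 myeloid markers summed to 363.3 and 108 CPM in the memory-like state of C57BL/6M and C57BL/6F, with Itgam, Csf1r, C1qa and Itgax at 0, against 20.4 and 97.8 CPM in plasma cells, and the 6 T cell markers to 0 and 110.1 CPM in the memory-like state, against 2.08 and 1.52 CPM in plasma cells. Their part was not tested. Scaled on the members' sum, 0 members lay above the common pattern and 0 below it, where 0.0637% of all genes lay above and 0.2% below.

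The 2 sampleIDs differed in the members by length, with a wide spread between the plates of a sampleID. In the germinal centre gates Rps29, Rps27 and Rpl41 were higher in C57BL/6M than in C57BL/6F and no member was lower (edgeR quasi-likelihood test, 77 members tested), where 0.23% of all 7387 genes tested were higher and 0.0% lower; 41 members had an unadjusted p below 0.05. In the plasma cell gate Rps21, Rps27, Rps27l and Rpl35 were higher and no member was lower, where 0.548% of all 6019 genes were higher and 0.116% lower; 38 members had an unadjusted p below 0.05. DESeq2 gave 13 higher and 2 lower in the germinal centre gates, where 0.839% of all genes were higher and 0.149% lower, and for the plasma cell gate 11 higher and 1 lower, where 1.1% and 0.299% were.

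Rps29, a zinc-binding protein of the small subunit, had 142 to 1691 CPM with a median of 396 in the germinal centre gates of C57BL/6M, and 57.1 to 351 CPM with a median of 111 in those of C57BL/6F. The log2 fold change was 1.78 ± 0.39 (SE; adjusted p = 0.0489, edgeR), and the ranges overlapped. Rps27 had 1167 to 6278 CPM with a median of 2775 in C57BL/6M and 590 to 2136 CPM with a median of 1364 in C57BL/6F, with a log2 fold change of 1.23 ± 0.24 (SE; adjusted p = 0.0194, edgeR). Rpl41 had 1.16 ± 0.25 (SE; adjusted p = 0.0489, edgeR). In the plasma cell gate Rps21 averaged 208 ± 111 CPM in C57BL/6M and 64.0 ± 30.6 in C57BL/6F (SD, n = 10 and 9 plates), a log2 fold change of 1.71 ± 0.40 (SE; adjusted p = 0.039, edgeR), and Rps27l averaged 1828 ± 494 CPM in C57BL/6M and 816 ± 311 in C57BL/6F, with 1.17 ± 0.22 (SE; adjusted p = 0.00695, edgeR). Plate 20 carried part of these calls: without it 0 members passed in the germinal centre gates and 1 in the plasma cell gate, and without plate 14 the counts were 1 and 2. In the germinal centre gates the log2 fold change without plate 20 was 1.38 for Rps29, 1.01 for Rps27 and 0.99 for Rpl41, none past the threshold, and without plate 14 Rps29 (1.79) and Rpl41 (1.14) missed it. In the plasma cell gate Rps21 missed it without plate 14 (1.72) and without plate 20 (1.499), and Rps27 without plate 20 (1.05).

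**Figure D5:**
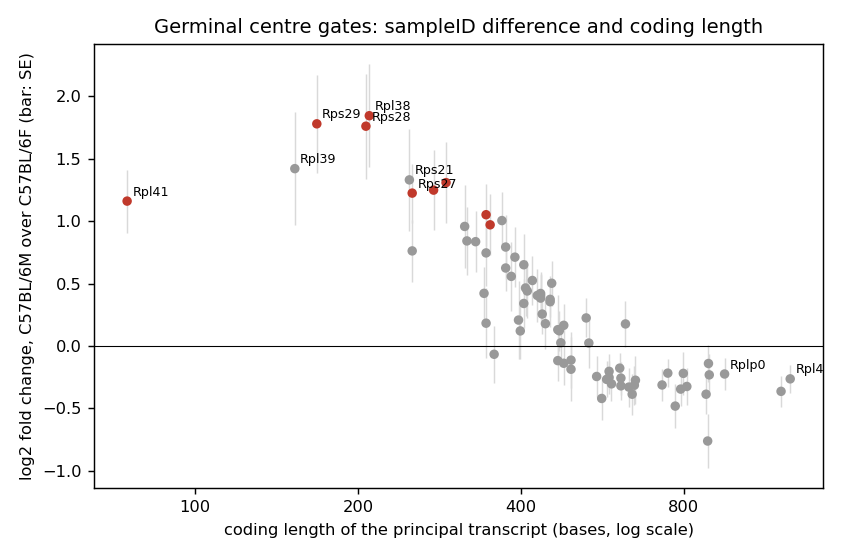
Log2 fold change ± SE of each of the 77 tested members, C57BL/6M over C57BL/6F in the germinal centre gates (vertical axis), by coding length in bases (horizontal log axis); red points left the common pattern. Values fall with length, with a median of 1.03 over the 20 members of up to 369 bases and of -0.12 over the other 57.

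Every called member had a short coding sequence, from 75 bases in Rpl41 to 369 in Rpl35. Over the 77 tested members the fold change between sampleIDs fell with coding length, with a Spearman's rho of -0.91 in the germinal centre gates and -0.90 in the plasma cell gate. This is a description across genes measured in the same plates, and genes are not independent replicates. The 20 members of up to 369 bases had a median log2 fold change of 1.03 in the germinal centre gates and 1.02 in the plasma cell gate, and 19 and 20 of them were positive. The other 57 had medians of -0.12 and -0.09, with 27 positive in each set of gates. Over the genes outside the members rho was 0.03 in the germinal centre gates (6886 genes) and 0.01 in the plasma cell gate (5557 genes), and over the mitochondrial ribosomal protein genes it was -0.23 and -0.37. Short genes outside the members had positive medians too, of smaller size: those of up to 369 bases had a median of 0.24 in the germinal centre gates (328 genes) and 0.29 in the plasma cell gate (310 genes), and longer ones had 0.002 and -0.02. The 9 short mitochondrial ribosomal protein genes had medians of 0.25 and 0.75, and the longer ones 0.09 and 0.12. No test set the members apart from these.

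The share of member counts that fell on those 20 short members gives the same pattern by plate. It was 19.5% ± 4.35 in the germinal centre gates of C57BL/6M (SD, n = 10 plates; 12.3% to 27.8%) and 10.9% ± 2.5 in those of C57BL/6F (SD, n = 9 plates; 6.39% to 13.9%). In the plasma cell gate it was 21.1% ± 4.86 in C57BL/6M and 11.9% ± 2.86 in C57BL/6F, and in the pre-plasma gate it was 19.9% ± 3.93 in C57BL/6M and 12.02% ± 2.48 in C57BL/6F. In each set of gates the ranges over plates overlapped at the low end of C57BL/6M. Plates 11 and 12 of C57BL/6M, at 12.3% and 13.5% in the germinal centre gates, lay within the C57BL/6F range. Within C57BL/6M the share varied more by plate than by gate. In the plasma cell, pre-plasma and germinal centre gates it was 12.7%, 12.2% and 12.3% on plate 11, and 29.4%, 26.8% and 27.8% on plate 20. On the scale of the members' sum, 9 members of the germinal centre gates lay above the common pattern in C57BL/6M: Rpl34, Rpl37, Rpl37a, Rpl38, Rpl41, Rps26, Rps27, Rps28 and Rps29, where 0.298% of all genes tested did, and 0 of the 77 lay below, where 0.0406% did. In the plasma cell gate Rps26, Rps27 and Rps27l lay above, where 0.332% of all genes did, and 0 members lay below, where 0.183% did. These counts are by edgeR and depend on the method. DESeq2 on this scale put members below the pattern in both sets of gates. Its counts are in the last section, without a share over all genes beside them. Coding length went along much less with the difference between gates, with a rho of -0.08 for the plasma cell gate and -0.37 for the pre-plasma gate, both relative to the germinal centre gates. The comparisons between gates were made within plates and so within a sampleID.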

How the data were processed

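The authors deposited whole-number counts of molecules per gene and cell for 1367 cells and 16047 genes. Per the submitters' processing notes, STAR 2.5.3a, HTSeq 0.9.1 and the mouse build mm10 were used; the filters on cells and genes, the treatment of reads shared by paralogues, the cell annotation and the phase calls are not given in the sources used here. Tags of 5 bases allow 1024 different molecules per gene and cell; the highest count of a member was 937. The authors' table of cells gives a plate, a letter M or F, a gate, a state and a phase per cell; plates were given to the sampleIDs C57BL/6M and C57BL/6F by that letter and cannot be tied to single samples of the series.

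Counts were summed over at least 5 cells per plate and class, or per sampleID and state. They were tested with edgeR 4.0.16 in R 4.3.3 (TMM, filterByExpr, quasi-likelihood test, plate or sampleID as block, Benjamini-Hochberg adjustment over all genes tested, threshold 0.05). The comparison of sampleIDs, whose plates differ, had no block. The same fits were made with the members' summed counts as library size. Where a member was counted in a cell, its median count was 61, and 5.145% of such values were 1. The fits of some comparisons were run on simulated counts in which plates differed in depth alone. Such counts cannot test how the plate block handles differences between plates, and the outcome is not given here. Alternatives were DESeq2 1.42.0, leaving out 301 immunoglobulin genes, no filter, a correction for tag collisions, thinning to 5000 counts per cell, no block and each sampleID alone; leaving out plate 14 or plate 20 was chosen after seeing the data. Named per comparison were the 5 members of highest mean level, the largest changes in each direction among called members and those that left the common pattern, and a fixed set of members with known roles; Rps24 and Rpl35 were added to complete counts, and 1 member that the rule names is not reported here. Members, lists and markers were chosen with earlier results of these data known. RefSeq start sites came from the promoter table of GRCm38.p6.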

Additional observations from a re-analysis of the deposited data

Results flagged for a closer look

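Among 88 groups of plates examined over 13 members, 5 had 1 plate far from the others by Dixon's criterion at the 95% level, where chance alone gives about 1 in 20 groups. Plate 20 held the highest level of Rpl38 in C57BL/6M, with 737.7 CPM in the plasma cell gate (next plate 401.4, lowest 49.6) and 727.4 CPM in the pre-plasma gate (next 364.7, lowest 58.84). In the germinal centre gates of C57BL/6M, plate 14 had 1255 CPM of Rps27l (next 727.3, lowest 326). In the pre-plasma gate of C57BL/6F, plate 6 had the lowest values, 420.6 CPM of Rpl10 (next 1367, highest 2108) and 140.2 CPM of Rpsa (next 511.3, highest 797.2); its pool held 5 cells, and it entered no comparison between gates.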

How the results depend on the processing

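Counts of members past the threshold moved by more than 1.5 times in the settings given here, where higher and lower refer to the first-named group. For the plasma cell gate over the germinal centre gates (6 higher, 40 lower), no plate block gave 3 higher and 18 lower, C57BL/6F plates alone 11 lower and C57BL/6M plates alone 19 lower. Of all genes tested 21.3% were lower as reported, 13.9% with no block, 6.71% in C57BL/6F alone and 12.5% in C57BL/6M alone. Higher were 13.6% as reported and 13.3% with no block. For the pre-plasma gate over the germinal centre gates (12 higher, 16 lower), DESeq2 gave 19 higher, no filter 4, tag collision correction 19, thinning 6, no block 1, C57BL/6F alone 1 and C57BL/6M alone 3. Lower were 8 with collision correction, 8 with thinning and 7 in C57BL/6M alone, and DESeq2 put 17 below the common pattern. In these settings 3.59% to 15% of all genes tested were higher, against 7.09% as reported. Lower were 7.75% of all genes with collision correction, 15.5% with thinning and 3.41% in C57BL/6M alone, against 8.14% as reported. For the plasma cell over the pre-plasma gate (5 higher, 36 lower), collision correction gave 3 higher, thinning 2, no block 3 and C57BL/6F alone 0; lower were 56 by DESeq2, 22 with no filter, 12 with no block, 13 in C57BL/6F alone and 18 in C57BL/6M alone, and DESeq2 put 15 above the pattern. There, Rpl4 was reversed to -0.22 by thinning, and Rplp0 to -0.016 by collision correction and -0.05 by thinning. Of all genes tested there, 8.42% were higher as reported, 8.17% with collision correction, 22.2% with thinning, 7.05% with no block and 2.74% in C57BL/6F alone. Lower were 9.69% as reported, 24.2% by DESeq2, 5.32% with no filter, 6.31% with no block, 2.07% in C57BL/6F alone and 5.73% in C57BL/6M alone. For annotated plasma cells over germinal centre cells (8 higher, 18 lower), no block gave 5 higher and 9 lower, C57BL/6F alone 3 higher and 9 lower, DESeq2 36 lower and thinning 45 lower. Of all genes tested 15.8% were lower as reported, 12.6% with no block, 5.97% in C57BL/6F alone, 29.4% by DESeq2 and 32.2% with thinning. Higher were 15.1% as reported, 14.7% with no block and 7.74% in C57BL/6F alone. For the activated state DESeq2 gave 3 higher and 1 above the pattern, and collision correction 0 below. For the memory-like state DESeq2 gave 3 higher and 1 below. By DESeq2 2.36% of all genes tested were higher in the activated state and 1.62% in the memory-like state. For C57BL/6M over C57BL/6F in the plasma cell gate (4 higher, 0 lower), DESeq2 gave 11 higher, 1 lower, 9 above the pattern and 10 below, thinning gave 1 higher, and 2 were higher without plate 14 and 1 without plate 20. Of all genes tested there, 0.548% were higher as reported, 1.1% by DESeq2, 1.83% with thinning, 0.406% without plate 14 and 0.311% without plate 20. In the germinal centre gates (3 higher, 0 lower), DESeq2 gave 13 higher, 2 lower and 19 below the pattern, leaving out immunoglobulin genes 7 higher, no filter 7, collision correction 1 and thinning 5, with 1 without plate 14 and 0 without plate 20. Of all genes tested there, 0.23% were higher as reported and 0.839% by DESeq2. The other settings gave 0.438% without immunoglobulin genes, 0.233% with no filter, 0.122% with collision correction and 0.56% with thinning. Without plate 14 it was 0.11% and without plate 20 0.0553%. For the counts above or below the pattern by DESeq2, the share over all genes on that scale is not given here. Those counts are therefore not read as a result about the members. The cause of these shifts was not tested. These are 52 counts; a further 150 stayed within 1.5 times. Of the single-gene values 1226 kept direction and call, 96 lost the call, 46 gained it and 3 were reversed. No paired analysis was possible because replicate numbers follow accession order only and the plates cannot be tied to single samples of the series; this concerns the replicate numbers alone, since gates were compared within plates, with plate as block. Leaving out a sampleID in the comparisons of states, where each of the 7 states has its own term, leaves no residual degrees of freedom, so none was run.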
